A study of Mus musculus with 7 samples.

Results

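The interleukin-1 (IL-1) family and inflammasome genes described here are 10 genes chosen by name: the cytokine genes Il1a, Il1b and Il18, the genes of the natural inhibitors Il1rn and Il18bp, the receptor genes Il1r1, Il1r2 and Il1rap, and the inflammasome genes Nlrp3 and Casp1. They were 10 of the 55401 genes in the count table, and 10 of 10 passed the filter on low counts that left 17465 genes for testing. The mice were male C57BL/6 animals, 6 to 8 weeks old, and each animal in both groups had received bleomycin, an antibiotic that injures the lung and leads to fibrosis, once into the trachea. In the BLM+HBO group (3 mice), hyperbaric oxygen (HBO), meaning oxygen breathed under raised pressure, was given at 2.5 ATA for 90 min per day over 14 days from day 7. The BLM group (4 mice) had no HBO. The labels place these mice in the chamber without pressurized oxygen and the methods call them untreated, which was not settled here. Right lung lobes were collected on day 21, with 1 RNA-seq library per mouse. Mice that lost too little weight after bleomycin were excluded by the study, and no lung without bleomycin was analysed here, so each value is a difference between injured lungs with and without HBO.

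IL-1α and IL-1β, the products of Il1a and Il1b, are inflammatory cytokines that bind the receptor IL1R1, which then recruits the accessory protein IL1RAP and signals through the adaptor MyD88. Signalling is restrained by the receptor antagonist encoded by Il1rn, which occupies IL1R1 without activating it, and by IL1R2, a decoy receptor that binds the cytokine and does not signal. IL-1β and IL-18 are made as inactive precursors, and the protease caspase-1, activated in the inflammasome that the sensor NLRP3 assembles, cuts them to their active forms, while IL-18 binding protein neutralizes IL-18. In the bleomycin-injured lung this pathway is known for driving neutrophil influx and fibrosis. Transcript counts show neither the cutting of the precursors nor the release of the cytokines.

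Total counts ranged from 18157161 to 26365969 per mouse, and the markers of lung tissue were present in each library (Sftpc of alveolar type 2 cells between 4549 and 16262 CPM, counts scaled to a common library size). The BLM+HBO mouse 2 stood apart from the other BLM+HBO mice. On the first principal component, which held 37.3% of the variance, it lay at -0.996, the BLM mice lay between -47.6 and -6.08, and BLM+HBO mice 1 and 3 lay at 54.8 and 37.8. Of all 21 pairs of libraries, BLM+HBO mouse 2 and BLM mouse 4 differed least (chi-square per gene 13.0, against at least 22.1 within a group). Whether the label is right was not tested, and results that rest on this mouse are given with and without it. Summed CPM of 12 heart muscle markers was between 74.7 and 205 in BLM mice. In BLM+HBO mice 1, 2 and 3 it was 766, 602 and 175, above each BLM mouse in 2 of the 3. For Mb, Actc1 and Ttn BLM+HBO mouse 3 was also above each BLM mouse (6.41, 50.8 and 6.15 CPM). Of the 12 markers, 10 had an unadjusted P below 0.05 and a fold change above 1.5, all higher after HBO. Of all tested genes, 6.29% did in either direction. The part of this tissue in the results was not tested. Over all tested genes the median log2 fold change was 0.01, and no gene passed an adjusted P of 0.05 in edgeR, where 1861 passed an unadjusted P of 0.05. DESeq2 gave 128 genes at an adjusted P of 0.05 and limma 0.

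The 3 receptor genes were lower in BLM+HBO lungs, and the cytokine genes, their inhibitors and the inflammasome genes did not pass the test. At an unadjusted P below 0.05, 3 of the 10 genes passed, and each of the 3 (Il1r1, Il1r2 and Il1rap) was lower after HBO. Of all tested genes, 10.7% passed this limit, 5.54% on the lower side and 5.11% on the higher side. When a fold change above 1.5 was required as well, only Il1r2 passed, against 6.29% of all tested genes in either direction and 2.89% lower. Il1r2 was also the only gene of the 10 whose groups did not overlap, against 8.77% of all tested genes. The fitted change was lower for 8 genes and higher for 2, with a median log2 fold change of -0.23. Over all tested genes it was lower for 8523 and higher for 8942. No gene of the 10 passed an adjusted P of 0.05 in edgeR, DESeq2 or limma, and at this number of mice the receptor differences remain calls at an unadjusted P. In the plot of levels by mouse, the groups share part of their range for each gene other than Il1r2.

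**Figure D1:**
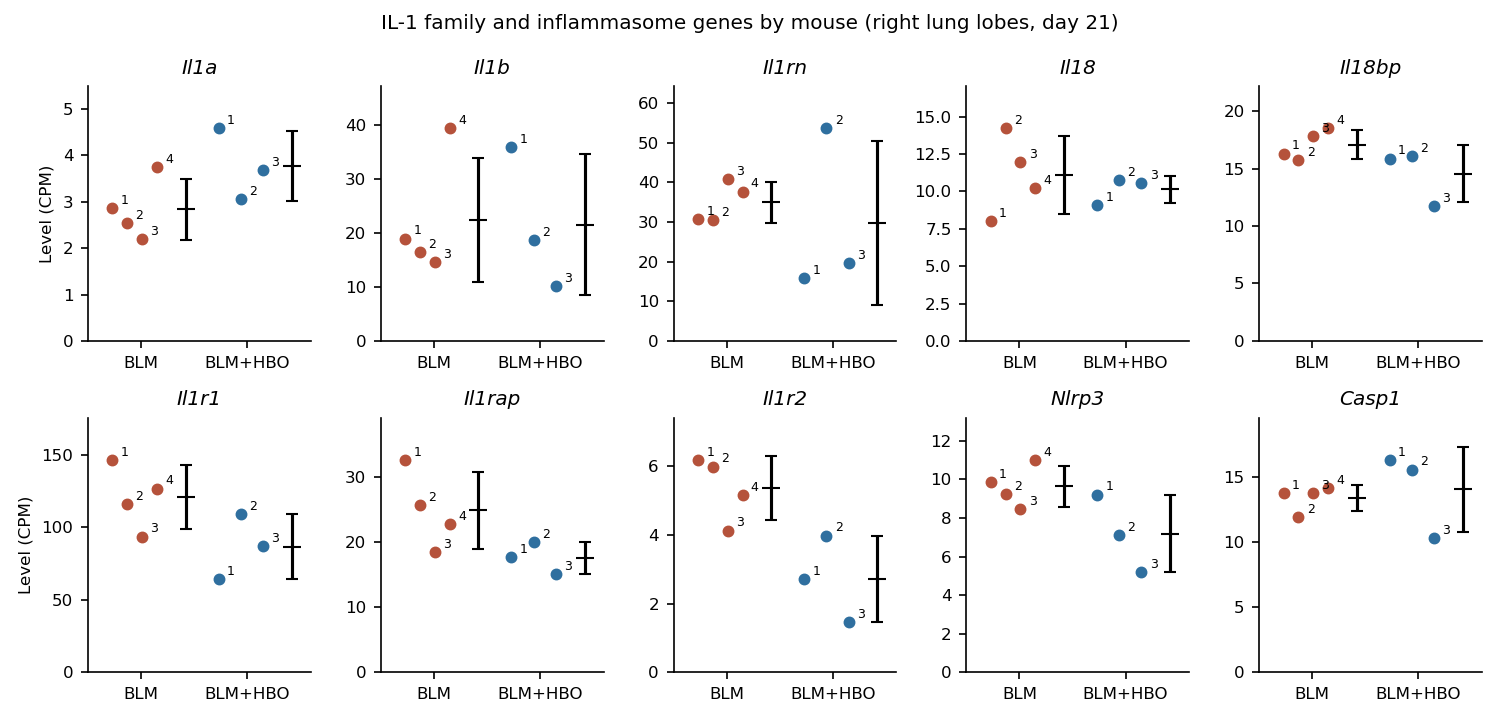
Level in CPM (vertical axes, linear from 0) of the 10 genes in each mouse, with points numbered by mouse within the BLM and BLM+HBO groups, and the mean and SD of each group drawn beside them. Il1r2 is the only gene whose 3 BLM+HBO points (1.46 to 3.97 CPM) all lie below the 4 BLM points (4.12 to 6.17 CPM).

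Il1r2 (ENSMUSG00000026073.13, GRCm38 chr1:40074079-40125231, plus strand) encodes the decoy receptor, which is abundant on neutrophils and some macrophages. Its levels were 6.17, 5.97, 4.12 and 5.16 CPM in BLM mice 1 to 4 and 2.71, 3.97 and 1.46 CPM in BLM+HBO mice 1 to 3. The highest BLM+HBO mouse, mouse 2, lay just under the lowest BLM mouse, mouse 3, and BLM+HBO mouse 3 was the lowest of the 7. The mean was 5.35 ± 0.933 CPM (SD, n = 4) against 2.72 ± 1.26 CPM (SD, n = 3), and the fitted level was 1.98-fold higher in BLM. Its log2 fold change was -0.98 (SE 0.35, unadjusted P = 0.0180, edgeR adjusted P = 0.423, DESeq2 adjusted P = 0.172). These levels rest on 39 to 112 reads per mouse. Without BLM+HBO mouse 3 the log2 fold change was -0.68 with an unadjusted P of 0.0530, so the call rests in part on that mouse, whereas it was kept when any other mouse was left out (-1.37 to -0.91).

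The first 250 bases before the RefSeq start of each receptor gene (GRCm38.p6, coding strand, 5′ to 3′) are printed because the receptor genes were the ones that passed the test, with the Il1b promoter beside them as that of a gene that did not pass. Capitals mark ACGTG or its reverse complement CACGT. The core letters bound by hypoxia-inducible factors (HIF), a question the study raised for HBO, are A or G followed by CGTG. The form GCGTG, or CACGC in reverse complement, was not searched and stays in small letters, as in the Il1r2 and Il1rap windows. These windows lie at chr1:40085843-40086092 for Il1r2, inside the span that GENCODE gives the gene, at chr1:40224830-40225079 for the upstream start of Il1r1, at chr16:26581455-26581704 for Il1rap and at chr2:129371140-129371389 on the minus strand for Il1b.
Il1r2: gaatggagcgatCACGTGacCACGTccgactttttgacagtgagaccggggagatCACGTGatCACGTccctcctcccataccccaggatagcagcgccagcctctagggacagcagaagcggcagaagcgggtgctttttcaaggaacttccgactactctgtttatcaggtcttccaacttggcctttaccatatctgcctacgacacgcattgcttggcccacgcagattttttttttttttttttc
Il1r1: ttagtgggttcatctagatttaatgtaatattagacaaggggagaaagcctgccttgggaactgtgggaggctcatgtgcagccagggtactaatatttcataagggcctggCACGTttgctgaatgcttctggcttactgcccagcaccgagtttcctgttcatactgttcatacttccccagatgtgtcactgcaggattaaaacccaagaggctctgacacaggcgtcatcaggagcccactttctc
Il1rap: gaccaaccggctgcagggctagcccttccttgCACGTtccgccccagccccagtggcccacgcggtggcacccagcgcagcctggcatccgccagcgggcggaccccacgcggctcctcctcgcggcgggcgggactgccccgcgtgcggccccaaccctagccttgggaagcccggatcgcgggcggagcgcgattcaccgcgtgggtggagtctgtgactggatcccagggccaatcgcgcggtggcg
Il1b: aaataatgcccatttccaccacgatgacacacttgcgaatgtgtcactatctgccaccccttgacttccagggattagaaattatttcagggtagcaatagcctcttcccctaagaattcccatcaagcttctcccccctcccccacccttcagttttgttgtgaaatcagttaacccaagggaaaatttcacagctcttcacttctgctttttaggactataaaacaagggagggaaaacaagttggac
The marked letters occurred 6 times at 4 places in the Il1r2 window, in 2 of which they form CACGTG, the E-box that other factors also bind. They occurred once each in the windows of Il1r1 and Il1rap and were not found in that of Il1b. Across the 10 genes, 5 of 14 RefSeq starts held them, in Il1r1, Il1r2, Il1rap, Nlrp3 and Casp1, and 16.6% of the 32851 promoter windows of the same length did. Of the other motifs searched on both strands, GGGNNTTCC (NF-κB) was in 3 of the 14 windows (Il1r1 and Nlrp3) and in 4.98% of all windows. TGANTCA (AP-1) was in 2 of the 14 (Il1a and Il1rn) and in 6.75% of all. TTGCNNAA (C/EBP) was in 2 of the 14 (Il1r1 and Il18bp) and in 9.56% of all. GAGGAAGT (PU.1) was in none of the 14 and in 2.44% of all. The C/EBP letters in the Il1r1 window begin at the base after the capitals. A match is a description of the letters and shows no binding. Nlrp3 and Casp1, the latter with 2 matches at 1 place, hold the marked letters and did not pass the test. The other RefSeq start of Il1r1, not printed, does not hold them.

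Il1r1 (ENSMUSG00000026072.12, chr1:40225080-40317257, plus strand) encodes the signalling receptor, found on fibroblasts, endothelium and many other cells, and had the highest mean level of the 10. BLM mice 1 to 4 had 146, 116, 93.7 and 127 CPM, and BLM+HBO mice 1 to 3 had 64.1, 109 and 87.1 CPM. BLM+HBO mice 1 and 3 lay below each BLM mouse, and mouse 2 lay within the BLM range. The mean was 121 ± 22 CPM (SD, n = 4) against 86.8 ± 22.5 CPM (SD, n = 3). This gave a log2 fold change of -0.48 (SE 0.20, unadjusted P = 0.0370, edgeR adjusted P = 0.453, DESeq2 adjusted P = 0.328). The sign was kept when each mouse was left out, with values from -0.68 to -0.30, but the unadjusted P stayed below 0.05 only without BLM mouse 3 or without BLM+HBO mouse 2. The value was -0.30 without BLM+HBO mouse 1 (unadjusted P = 0.137), more than 1.5 times smaller.

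Il1rap (ENSMUSG00000022514.14, chr16:26581704-26730117, plus strand) encodes the accessory protein shared by the receptors for IL-1, IL-33 and IL-36. Its levels were 32.5, 25.6, 18.4 and 22.7 CPM in BLM mice 1 to 4 and 17.7, 19.9 and 15 CPM in BLM+HBO mice 1 to 3. BLM mouse 1 was the highest, and BLM+HBO mouse 2 was above BLM mouse 3, which was the only overlap. The mean was 24.8 ± 5.93 CPM (SD, n = 4) against 17.6 ± 2.44 CPM (SD, n = 3), and the log2 fold change was -0.50 (SE 0.20, unadjusted P = 0.0305, edgeR adjusted P = 0.441). Leaving out each mouse gave -0.62 to -0.34. An antisense gene with at most 4 reads per mouse, Gm20319, shares 552 of its 11360 exon bases. The unadjusted P rose to 0.0831 without BLM mouse 1, 0.0610 without BLM mouse 2, 0.0594 without BLM+HBO mouse 1 and 0.105 without BLM+HBO mouse 3. The 3 receptor calls therefore each depended on which mice were counted, as the plot of fold changes with each mouse left out shows.

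**Figure D2:**
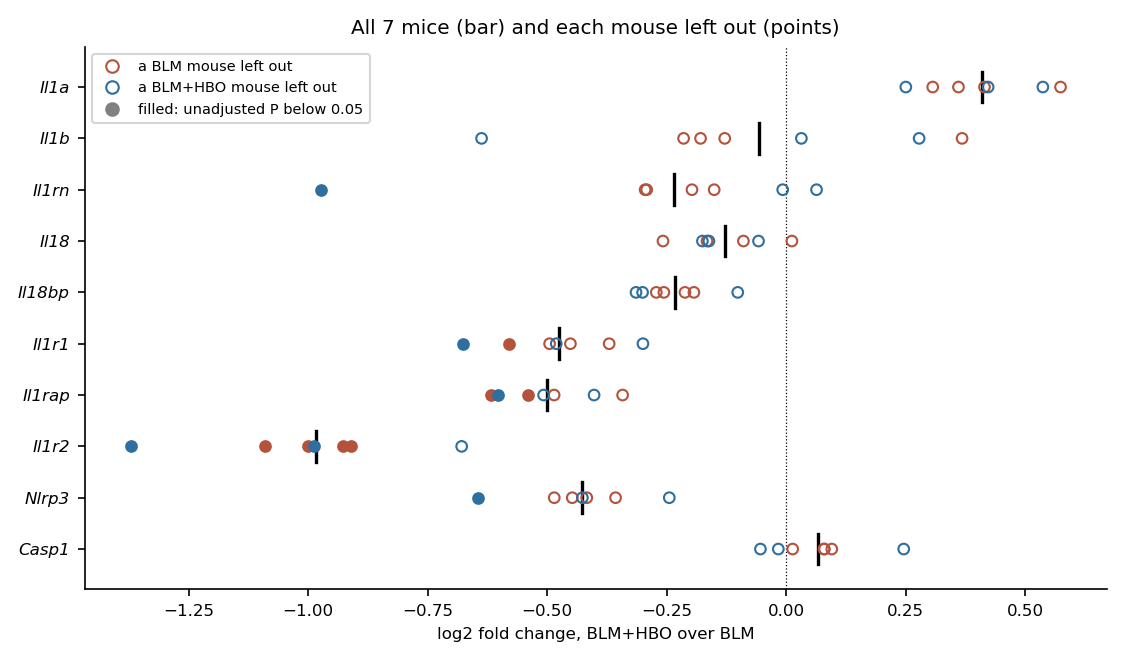
Fitted log2 fold change of BLM+HBO over BLM (horizontal axis) for the 10 genes from all 7 mice (black bars) and with each mouse left out in turn (points, coloured by the group of the mouse left out and filled where the unadjusted P was below 0.05). The 3 receptor genes stay left of 0 throughout, and Il1rn spans from -0.97 to 0.063.

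Il1b (ENSMUSG00000027398.13, chr2:129364570-129371139, minus strand), the cytokine gene induced in activated neutrophils and macrophages, did not pass the test. BLM mice 1 to 4 had 18.9, 16.4, 14.6 and 39.3 CPM, and BLM+HBO mice 1 to 3 had 35.8, 18.7 and 10.1 CPM. A single mouse stood high in each group, BLM mouse 4 and BLM+HBO mouse 1, and the lowest of the 7 was BLM+HBO mouse 3. The mean was 22.3 ± 11.5 CPM (SD, n = 4) in BLM against 21.5 ± 13.1 CPM (SD, n = 3) after HBO, with a log2 fold change of -0.06 (SE 0.44, unadjusted P = 0.899). This standard error was the largest of the 10 genes, and the sign turned without BLM mouse 4 (0.37), BLM+HBO mouse 2 (0.03) or BLM+HBO mouse 3 (0.28), so the data do not fix a direction for Il1b. Its exons share 25 of 1907 bases with the antisense gene Il1bos.

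Il1a (ENSMUSG00000027399.1, chr2:129299610-129309972, minus strand), whose product acts as an alarm signal from damaged cells, was low. Its levels were 2.86, 2.54, 2.2 and 3.74 CPM in BLM mice 1 to 4 and 4.58, 3.06 and 3.67 CPM in BLM+HBO mice 1 to 3, from 40 to 98 reads per mouse. The groups overlapped through BLM mouse 4. Its log2 fold change was 0.41 (SE 0.28, unadjusted P = 0.173), positive with each mouse left out and 0.25 without BLM+HBO mouse 1. Exons of an antisense gene, Gm14023, cover 222 of the 1974 exon bases of Il1a, and reads in the shared bases were not counted.

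Il1rn (ENSMUSG00000026981.15, chr2:24336853-24351494, plus strand) encodes the receptor antagonist. BLM mice 1 to 4 had 30.8, 30.5, 40.9 and 37.6 CPM, and BLM+HBO mice 1 to 3 had 15.9, 53.6 and 19.7 CPM. BLM+HBO mice 1 and 3 lay below each BLM mouse, and BLM+HBO mouse 2 lay above each of them. The SD was accordingly 20.7 CPM in BLM+HBO (mean 29.7, n = 3) and 5.15 CPM in BLM (mean 35, n = 4). With all mice the log2 fold change was -0.24 (SE 0.36, unadjusted P = 0.531). Without BLM+HBO mouse 2, the mouse nearest to the BLM group on the first principal component, it was -0.97 with an unadjusted P of 0.000373 and an edgeR adjusted P of 0.0412, and in that fit 267 genes in all passed an adjusted P of 0.05. It was 0.063 without BLM+HBO mouse 1, so 1 mouse decides the value of Il1rn.

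Il18 (ENSMUSG00000039217.13, chr9:50554827-50581840, plus strand), a cytokine gene that epithelium also transcribes at rest, ranged from 7.98 to 14.2 CPM in BLM mice (mean 11.1 ± 2.64 CPM, SD, n = 4) and from 9.10 to 10.8 CPM in BLM+HBO mice (mean 10.1 ± 0.902 CPM, SD, n = 3). All BLM+HBO mice lay inside the BLM range. Its log2 fold change was -0.13 (SE 0.21, unadjusted P = 0.554), and it turned to 0.012 without BLM mouse 2. Il18bp (ENSMUSG00000070427.4, chr7:102014885-102018690, minus strand), the gene of the IL-18 inhibitor, had 16.3, 15.7, 17.8 and 18.5 CPM in BLM mice 1 to 4 and 15.9, 16.1 and 11.7 CPM in BLM+HBO mice 1 to 3. Only BLM+HBO mouse 3 fell outside the BLM range. The log2 fold change was -0.23 (SE 0.16, unadjusted P = 0.167), and -0.10 without BLM+HBO mouse 3 (unadjusted P = 0.524). Il18bp shares 80 of 3026 exon bases with Numa1, an abundant gene on the opposite strand, and the counting did not use the strand.

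Nlrp3 (ENSMUSG00000032691.14, chr11:59541568-59566956, plus strand), the inflammasome sensor gene of myeloid cells, had 9.86, 9.24, 8.46 and 11 CPM in BLM mice 1 to 4 and 9.21, 7.13 and 5.21 CPM in BLM+HBO mice 1 to 3. BLM+HBO mice 2 and 3 were below each BLM mouse and mouse 1 was within their range. For Nlrp3 the log2 fold change was -0.43 (SE 0.22, unadjusted P = 0.0855, edgeR adjusted P = 0.524). It passed the unadjusted limit in 1 of the fits with a mouse left out, that without BLM+HBO mouse 1 (-0.65, unadjusted P = 0.0191), and without BLM+HBO mouse 3 the value was -0.24 (unadjusted P = 0.284). Casp1 (ENSMUSG00000025888.6, chr9:5298508-5307290, plus strand), the gene of the protease that matures IL-1β and IL-18, had 13.8, 11.9, 13.7 and 14.2 CPM in BLM mice 1 to 4 and 16.3, 15.6 and 10.3 CPM in BLM+HBO mice 1 to 3. BLM+HBO mice 1 and 2 were above each BLM mouse and mouse 3 was below each. For Casp1 the log2 fold change was 0.07 (SE 0.18, unadjusted P = 0.728).

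Levels were compared between genes as CPM per kilobase of the merged exons that the count table gives for each gene. In BLM lungs Il1r1 was highest (19.0 ± 3.45 CPM per kb, SD, n = 4), then Il1b (11.7 ± 6.02), Il18 (10.8 ± 2.56), Il1rn (6.32 ± 0.930), Il18bp (5.65 ± 0.426), Casp1 (4.27 ± 0.324), Il1r2 (2.81 ± 0.489), Nlrp3 (2.38 ± 0.265), Il1rap (2.18 ± 0.522) and Il1a (1.44 ± 0.335). The ranges over the BLM mice did not overlap at 3 steps of this order, between Il18 and Il1rn, between Il18bp and Casp1 and between Casp1 and Il1r2. At the other steps neighbouring genes overlapped. In BLM+HBO lungs the first 6 genes came in the same order of means, from Il1r1 at 13.6 to Casp1 at 4.48 CPM per kb. The last 4 had means of 1.91 (Il1a), 1.77 (Nlrp3), 1.55 (Il1rap) and 1.42 CPM per kb (Il1r2), with overlapping ranges, so Il1r2 moved from the seventh to the lowest mean. Merged exons include long alternative ends (11360 bases in Il1rap, 6363 in Il1r1), which lowers the level per kilobase of such genes.

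The balance between a gene and its natural inhibitor was taken as the log2 ratio of their CPM in each mouse. The scaling between libraries enters this value only through the prior count of 2 added before the logarithm. In all, 3 such ratios were compared by a two-sided exact permutation test, which cannot go below P = 0.0286 with 4 and 3 mice. The ratio of the decoy Il1r2 to the signalling receptor Il1r1 averaged -4.47 ± 0.15 (SD, n = 4) in BLM against -5.02 ± 0.69 (SD, n = 3) after HBO. Per length, Il1r2 was 0.140, 0.172, 0.147 and 0.136 of Il1r1 in BLM mice 1 to 4 and 0.141, 0.121 and 0.0560 of it in BLM+HBO mice 1 to 3. BLM+HBO mouse 1 lay within the BLM range. The log2 difference was -0.55 (exact permutation P = 0.0857, adjusted over the 3 ratios 0.257). This difference was -0.16 without BLM+HBO mouse 3, so its size came mainly from that mouse.

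The ratio of the antagonist Il1rn to Il1b averaged 0.75 ± 0.64 (SD, n = 4) in BLM against 0.43 ± 1.41 (SD, n = 3) after HBO, a log2 difference of -0.32 (exact permutation P = 0.743, adjusted 0.743). Per length, Il1rn was 0.560, 0.642, 0.965 and 0.330 of Il1b in BLM mice 1 to 4 and 0.153, 0.989 and 0.670 of it in BLM+HBO mice 1 to 3. BLM+HBO mouse 1 had the lowest and BLM+HBO mouse 2 the highest antagonist share of the 7 mice, and without mouse 1 the difference turned to 0.48. The ratio of Il18bp to Il18 was 0.65 ± 0.38 (SD, n = 4) and 0.51 ± 0.33 (SD, n = 3), a log2 difference of -0.14 (exact permutation P = 0.6, adjusted 0.743), which turned to 0.037 without BLM+HBO mouse 3. None of the 3 ratios passed the test.

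**Figure D3:**
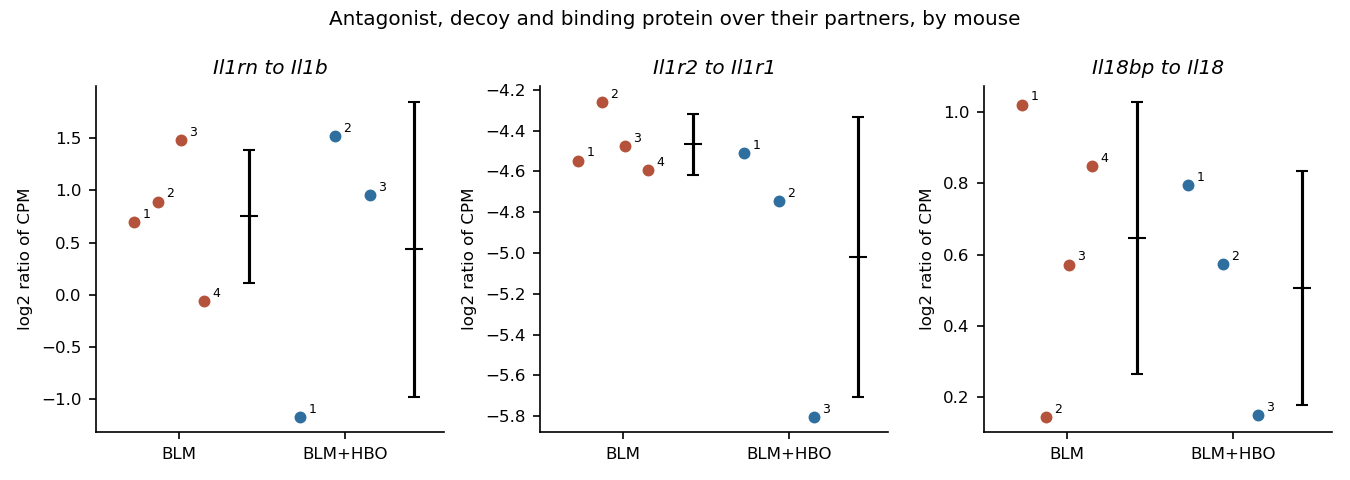
Log2 ratio of CPM (vertical axes) of Il1rn to Il1b, Il1r2 to Il1r1 and Il18bp to Il18 in each numbered mouse, with the mean and SD of each group. BLM+HBO mouse 3 lies apart at the bottom of the Il1r2 panel and BLM+HBO mouse 1 at the bottom of the Il1rn panel, and the groups overlap in each panel.

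The rest of the pathway was counted in 5 lists with 67 genes, of which 58 were tested. At an unadjusted P below 0.05, 5 of the 58 (8.62%) passed, and all 5 were lower in BLM+HBO. Of all tested genes, 10.7% passed in either direction and 5.54% on the lower side. The fitted change was lower for 39 and higher for 19, with a median of -0.13. Over all tested genes it was lower for 8523 and higher for 8942. The groups did not overlap for 4 of the 58 (6.90%, against 8.77% of all tested genes). The count was 13 without BLM+HBO mouse 2, where 15.9% of all tested genes passed, and 3 without BLM+HBO mouse 3, where 7.14% did.

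Of the 6 other ligand genes, Il33 and Il1f9 (IL-36γ) were tested and neither passed. Il33, the alarm cytokine stored in the nucleus of epithelial and stromal cells, was the most abundant, at 45.0 to 117 CPM in BLM mice and 66.9 to 113 CPM in BLM+HBO mice, with a log2 fold change of 0.11 (SE 0.31, unadjusted P = 0.724). Il1f9 had a log2 fold change of 0.59 (SE 0.40, unadjusted P = 0.171). Il1f6 (IL-36α) and Il1f5 (the IL-36 receptor antagonist) had a count of 0 in each of the 7 libraries, where 3 counts correspond to 0.112 to 0.169 CPM, and Il1f8 (IL-36β) and Il1f10 stayed at or below 0.106 CPM. Of the 7 other receptor genes, 5 were tested and 0 passed, with a median of -0.07. Il18r1, which encodes the IL-18 binding chain, was the most abundant at 131 ± 14.0 CPM (SD, n = 4) against 125 ± 6.44 CPM (SD, n = 3), with a log2 fold change of -0.07 (SE 0.11). Il1rl2, the gene of the IL-36 receptor, had a log2 fold change of -0.39 (SE 0.19, unadjusted P = 0.0670), and Il1rl1, the gene of the IL-33 receptor, one of -0.35 (SE 0.25, unadjusted P = 0.203). Whether Il1r1, Il1r2 and Il1rap differed from the other receptor genes was not tested.

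Among 11 genes of receptor signalling, 10 had a lower and 1 a higher fitted change, with a median of -0.09, and 1 passed. This was Myd88, the adaptor gene of the IL-1 and Toll-like receptors, at 63.7, 62.0, 61.8 and 70.1 CPM in BLM mice 1 to 4 and 49.6, 58.7 and 53.7 CPM in BLM+HBO mice 1 to 3. All BLM+HBO mice lay below all BLM mice. Its log2 fold change was small, -0.25 (SE 0.10, unadjusted P = 0.0344, edgeR adjusted P = 0.447), and the unadjusted limit was missed without BLM mouse 2 or 4 or without BLM+HBO mouse 1 or 3. Tab2, an adaptor of the kinase TAK1 and the most abundant of this list, had a log2 fold change of -0.09 (SE 0.12).

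Of 21 other genes of inflammasomes and of the pyroptotic death they trigger, 20 were tested, 1 passed and the median was 0.05. Ninj1, whose product ruptures the membrane of dying cells, had 63.4, 58.2, 68.1 and 45.0 CPM in BLM mice 1 to 4 and 38.6, 50.6 and 37.8 CPM in BLM+HBO mice 1 to 3. BLM mouse 4 was the lowest of its group and lay below BLM+HBO mouse 2. The log2 fold change was -0.47 (SE 0.16, unadjusted P = 0.0174, edgeR adjusted P = 0.423), with the unadjusted limit missed without BLM+HBO mouse 1 or 3. Txnip, which encodes an NLRP3-binding protein that also regulates glucose uptake, was the most abundant, at 512 ± 83.3 CPM (SD, n = 4) against 634 ± 248 CPM (SD, n = 3), and did not pass (log2 fold change 0.31, SE 0.24).

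Genes that IL-1 and NF-κB are known to induce made the largest list, with 20 of 22 tested. The fitted change was lower for 17 of the 20, with a median of -0.38, where it was lower for 8523 of all 17465 tested genes. In this list 3 passed, all lower, and 5.54% of all tested genes passed on the lower side. The 3 were the neutrophil chemokine genes Cxcl5 and Cxcl1 and Csf3, the gene of the granulocyte growth factor. Cxcl5 had 21.1, 5.19, 5.33 and 8.58 CPM in BLM mice 1 to 4 and 2.56, 3.11 and 2.36 CPM in BLM+HBO mice 1 to 3. BLM mouse 1 stood high, and the groups did not overlap. Its log2 fold change was -1.91 (SE 0.50, unadjusted P = 0.00370, edgeR adjusted P = 0.423), and DESeq2 gave an adjusted P of 0.0152. The unadjusted P stayed below the limit with each mouse left out, while the log2 fold change shrank to -1.25 without BLM mouse 1.

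Cxcl1 had 13.6, 3.44, 3.40 and 11.8 CPM in BLM mice 1 to 4 and 2.24, 3.92 and 1.54 CPM in BLM+HBO mice 1 to 3. BLM mice 1 and 4 carried the difference, while BLM mice 2 and 3 lay within the BLM+HBO range. The log2 fold change was -1.66 (SE 0.57, unadjusted P = 0.0168), and without BLM+HBO mouse 3 the unadjusted P was 0.0619. Csf3 was at or under 1.69 CPM in each mouse, with groups that did not overlap in CPM. It had 20, 6, 16 and 32 reads in BLM mice 1 to 4 and 1, 5 and 6 in BLM+HBO mice 1 to 3. BLM mouse 2 and BLM+HBO mouse 3 thus had the same number of reads, in libraries of different depth. The fitted log2 fold change of Csf3, -2.46 (SE 0.66, unadjusted P = 0.00444), rests on these few reads. Csf3 was removed by the filter without BLM mouse 1, 3 or 4 and by the filter of 1 CPM in 3 mice, so it has no value there. Icam1, an endothelial and leukocyte adhesion gene and the most abundant of the list, was at 687 ± 68.4 CPM (SD, n = 4) against 571 ± 66.0 CPM (SD, n = 3). It did not pass in edgeR (log2 fold change -0.27, SE 0.13, unadjusted P = 0.0788), and DESeq2 gave an unadjusted P of 0.0495. Its groups did not overlap, with the lowest BLM mouse at 627 CPM and the highest BLM+HBO mouse at 621 CPM. The plot of fold changes by list places the 5 genes beside the 3 receptor genes.

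**Figure D4:**
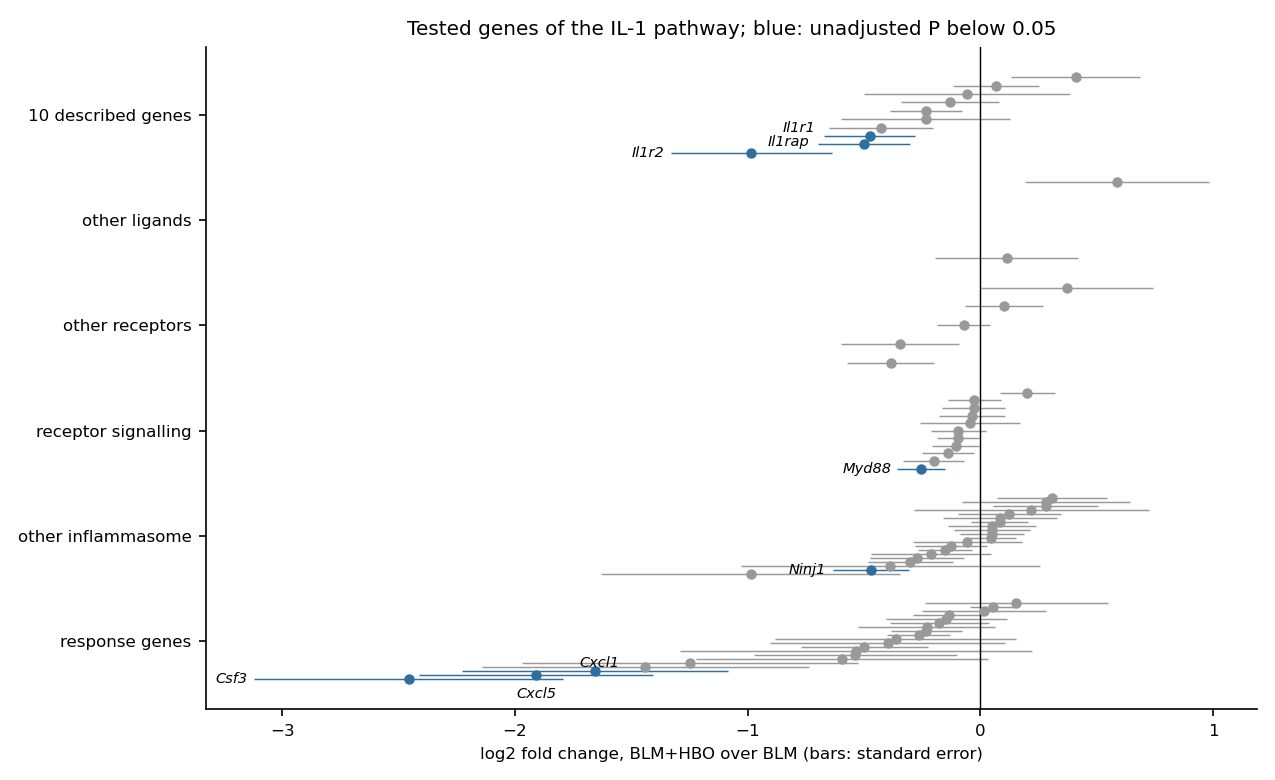
Fitted log2 fold change of BLM+HBO over BLM (horizontal axis) with its standard error for each tested gene, in 6 rows for the 10 genes described and the 5 pathway lists, in blue and named where the unadjusted P was below 0.05. All 8 named genes lie left of 0, from -0.25 for Myd88 to -2.46 for Csf3.

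The libraries come from whole lobes, in which fewer cells of a type and less RNA per cell cannot be told apart, so marker lists of cells known to transcribe these genes were summed in each mouse. Of 11 neutrophil markers, 1 passed the unadjusted limit (Trem1, lower), and the summed level was 219 to 276 CPM in BLM mice and 547, 147 and 134 CPM in BLM+HBO mice 1, 2 and 3. BLM+HBO mouse 1, the highest in neutrophil markers, also had the highest Il1b of its group, and BLM+HBO mouse 3, the lowest, had the lowest Il1b and Il1r2. In BLM+HBO mouse 1, by contrast, Il1r2 was below each BLM mouse (2.71 CPM) while the neutrophil sum was the highest of the 7 mice. Of the 547 CPM in that mouse, S100a8 and S100a9 made up 117 and 210 CPM. The part of neutrophils in the Il1r2 difference was not tested. BLM mouse 4, with the highest Il1b of all, was at 226 CPM in neutrophil markers, inside its group's range. Of 11 monocyte and interstitial macrophage markers, 6 passed, all lower, where 5.54% of all tested genes passed on the lower side. Ly6c2 and Ccr2 were fitted higher (log2 fold change 0.47 and 0.05). In BLM+HBO mouse 1 they were above each BLM mouse (61.3 and 156 CPM). The summed level of the list was mostly C1qa, C1qb and C1qc. It was 1341 to 1983 CPM in BLM mice and 906, 1307 and 807 CPM in BLM+HBO mice 1, 2 and 3, below each BLM mouse. A sum without these C1q genes was not taken.

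For the counts that follow, 5.54% of all tested genes passed lower and 5.11% higher. The fitted change over all tested genes was lower for 8523 and higher for 8942. Of 7 fibroblast markers, 4 passed lower (Col1a2, Col3a1, Pdgfra and Dcn) and 1 higher (Tcf21). The summed level, mostly collagen, was 4456 to 6881 CPM in BLM mice and 1791, 4856 and 2653 CPM in BLM+HBO mice 1, 2 and 3. This is the order of Il1r1 in the BLM+HBO mice, with mouse 1 lowest and mouse 2 highest, and BLM mouse 1 was the highest of the 7 in both. BLM mouse 4, by contrast, had the lowest fibroblast sum of its group (4456 CPM) and the second highest Il1r1 of the 7 (127 CPM). Of 8 endothelial markers 1 passed (Vwf, lower), and their summed level was 3053 to 3698 CPM in BLM mice and 3089 to 3691 CPM in BLM+HBO mice. Of 8 alveolar type 2 markers 2 passed, both higher, with 8865 to 16227 CPM in BLM mice and 24385, 11267 and 27839 CPM in BLM+HBO mice 1, 2 and 3. The 4 basophil and mast cell markers Mcpt8, Ms4a2, Fcer1a and Prss34 were too low to be tested, at or below 1.86 CPM in each mouse. Dendritic cell markers went the other way, with 8 of 8 fitted higher and 2 past the limit, at 456 to 899 CPM in BLM mice and 836 to 933 CPM in BLM+HBO mice. Of 10 tested alveolar macrophage markers 8 were fitted higher and 2 lower, with a median log2 fold change of 0.34. Krt79 and Ear1 passed higher (log2 fold change 2.09 and 0.67), and Marco and Chil3 passed lower (-2.06 and -1.06). The summed level of this list, mostly Chil3, was 704 to 2121 CPM in BLM mice and 671 to 829 CPM in BLM+HBO mice. Of 6 markers of all leukocytes 0 passed, at 961 to 1060 CPM in BLM mice and 793 to 1232 CPM in BLM+HBO mice. The part of these cell types in the receptor differences was not tested.

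**Figure D5:**
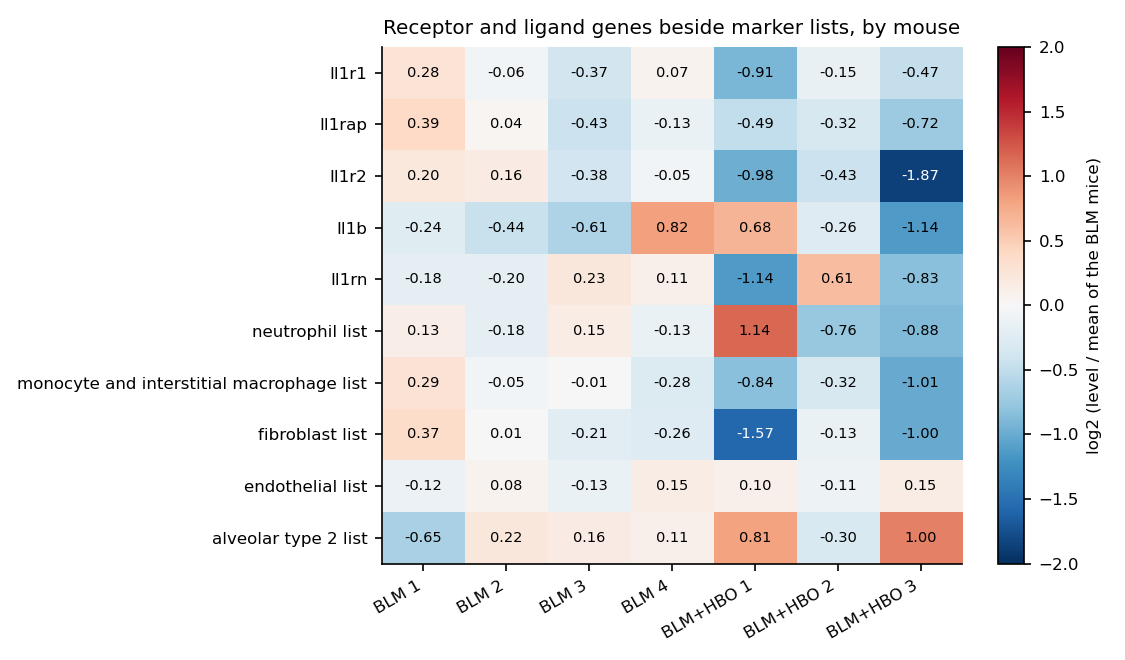
Log2 of the level in each mouse (columns) over the mean of the 4 BLM mice for 5 genes and for the summed CPM of 5 marker lists (rows), with red above and blue below that mean and the value printed in each cell. BLM+HBO mice 1 and 3 are low in the receptor, macrophage and fibroblast rows, BLM+HBO mouse 2 is nearer to 0 in them, and the endothelial row stays between -0.13 and 0.15.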

How the data were processed

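RNA of the right lung lobes was sequenced by the authors from NEBNext Ultra libraries on an Illumina NovaSeq in paired-end mode. Per the methods, reads were trimmed with Trim Galore, mapped to GRCm38 with HISAT2 and counted with featureCounts at default settings, which ignore the strand and leave out reads shared by several genes or places. The labels list HISAT2 2.2.0. The release of the gene annotation is not given in the sources used here. The deposited values are raw counts per gene and mouse, without normalization by the authors. Symbols came from GENCODE vM21, with a symbol for 55141 of 55401 identifiers (54349 in the same version).

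Low counts were removed with filterByExpr (minimum count 10 and minimum total 15), and the rest were scaled by TMM (factors 0.964 to 1.036) and tested with the quasi-likelihood test of edgeR 4.0.16 in R 4.3.3 across all 17465 genes, with Benjamini-Hochberg adjustment. The thresholds were those of the study, an unadjusted P below 0.05 and a fold change above 1.5. DESeq2 1.42.0, limma 3.58.1, RLE and upper-quartile factors, no filter, a filter of 1 CPM in 3 mice, a replicate block and leaving out each mouse were the alternatives. The edgeR, limma and DESeq2 fits were run on counts simulated with the same dispersion for every gene and no deviating mouse. That setting differs from these data, and the permutation test was not part of it. Log2 CPM for ratios used a prior count of 2 (alternative 0.5). Levels in CPM used the scaled library sizes and are subject to counting error, about 3 reads being the limit of a count of 0. Libraries of the same group differed by more than sampling noise (chi-square per gene at least 22.1), so each mouse was 1 replicate.

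The named genes were the 10 genes and, from each pathway list, those with an unadjusted P below 0.05 and the most abundant gene. Il1rl1, Il1rl2, Il1f9, Il1f6, Il1f5, Il1f8 and Il1f10, and the marker genes named beside their lists, were added to show which genes were near 0 or moved. The genes and lists were chosen with earlier results of these data known. Promoter sequences are from RefSeq (GRCm38.p6), with 14 starts for the 10 genes.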

Additional observations from a re-analysis of the deposited data

Results flagged for a closer look

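The total count of BLM mouse 4 was 19002242, and the other 3 BLM mice lay between 18436336 and 18452895. The distance from it to its closest neighbour took up 0.971 of the spread between lowest and highest, more than Dixon's critical value for a group of 4. The difference in depth is small, and the counts are scaled for it. Of 19 sets of 4 BLM values examined in this way (total counts, levels and ratios), 1 exceeded this value, where about 1 in 20 would by chance. The high Il1b of this mouse was under it, at 0.738.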

How the results depend on the processing

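The number of the 10 genes past both thresholds, 1 with all mice, ran from 0 to 4 when each mouse was left out, and the number past the unadjusted P alone, 3 with all mice, ran from 0 to 4. Without BLM+HBO mouse 3 both counts were 0, and 4.95% of all tested genes passed both thresholds and 7.14% the unadjusted P. Without BLM+HBO mouse 2 both were 4, with Il1r1, Il1r2, Il1rap and Il1rn, and these shares were 10.7% and 15.9%. Without BLM mouse 3 (Il1r2 and Il1rap) and without BLM+HBO mouse 1 (Il1r2 and Nlrp3) 2 passed both thresholds, and without BLM mouse 1 or 2 the unadjusted count was 1, Il1r2. The other tools (limma-trend and DESeq2), the other scaling factors (upper-quartile and RLE) and the other filters (none, or 1 CPM in 3 mice) gave the same 3 receptor genes at the unadjusted P and Il1r2 alone with the fold change. The pathway lists had 5 genes past the unadjusted P with all mice, 7 in DESeq2, 6 in limma-trend, 8 without a filter, and 3 to 13 with a mouse left out. Without a filter 387 of 32896 genes passed an adjusted P of 0.05, among them Cxcl5 (adjusted P = 0.00429) and Cxcl1 (0.0275), and none of the 10. Myd88 missed the unadjusted limit there.

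Correlations of same-numbered deviations were -0.01, -0.07 and 0.16, which does not settle whether the replicate numbers pair the mice of the 2 groups. The highest correlation across groups was 0.17, between BLM mouse 1 and BLM+HBO mouse 2. With a replicate block 2 of the 10 passed the unadjusted P (Il1r2 and Il1rap, but not Il1r1), 1 passed both thresholds, and Il1b changed sign to 0.20. The block gave ratio differences of -0.59 for Il1rn to Il1b, -0.59 for Il1r2 to Il1r1 and -0.07 for Il18bp to Il18. In the lists, Myd88 and Cxcl1 missed the limit under it.

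Signs also turned for Il1b without BLM mouse 4 (0.37), BLM+HBO mouse 2 (0.03) and BLM+HBO mouse 3 (0.28), Il1rn without BLM+HBO mouse 1 (0.063), Il18 without BLM mouse 2 (0.012), and Casp1 without BLM+HBO mouse 1 (-0.054) or 2 (-0.017). The ranges with a mouse left out were -0.64 to 0.37 for Il1b, -0.97 to 0.063 for Il1rn, -0.26 to 0.012 for Il18 and -0.054 to 0.25 for Casp1. With a mouse left out, the ratio difference ran from -0.86 to 0.48 for Il1rn to Il1b (0.48 without BLM+HBO mouse 1), from -0.81 to -0.16 for Il1r2 to Il1r1 and from -0.31 to 0.037 for Il18bp to Il18 (0.037 without BLM+HBO mouse 3). Over 15 named genes, 175 of 206 alternative values kept direction and side of the threshold, 21 lost the call, 2 gained it and 8 changed sign. The cause was not tested. The fits with a mouse left out also have fewer samples. Il1r2, Il1a and Csf3 have few reads, which limits the precision of their levels.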
